A study of Mus musculus with 27 samples.

Results

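The 8 genes described here encode receptors and integrin chains that guide B cell movement: S1pr1, Gpr183, Ccr7, Cxcr5, Cxcr4, Ccr6, Itga4 and Itgb7. They were taken by name from the 35604 genes of the deposited table. The cells were wild-type mouse splenic B cells (primary), measured as naive cells before culture or after 6 h or 24 h in culture. All cultured cells received an anti-CD40 antibody (clone HM40-3) at 1 µg/mL, which stands in for the CD40 signal of helper T cells, with no cytokine, with IL-4 (12.5 ng/mL), with IL-21 (50 ng/mL) or with the 2 cytokines together. There were 9 groups of 3 libraries each, and the series was designed to look at what IL-21 signalling does within B cells. No group was cultured without anti-CD40, so a difference from naive cells joins culture and stimulation, which cannot be told apart. Strain and age of the mice are not given in the labels used here, nor is it said whether replicates came from separate animals or cultures. P-values therefore reflect only how far these samples spread, and that spread may be technical.

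Lymphocyte position is set largely by G protein-coupled receptors that read gradients of chemokines or lipids, and by integrins that hold cells to vessel walls and stroma. In the spleen and lymph nodes, CXCR5 draws B cells into follicles, CCR7 draws them to the T cell zone, and the oxysterol receptor GPR183 (EBI2) draws them to the outer follicle and its borders. S1PR1 reads sphingosine-1-phosphate and lets cells leave lymphoid tissue, CXCR4 reads CXCL12 and holds cells in the bone marrow and in the germinal centre dark zone, and CCR6 reads CCL20. The integrin chain α4, encoded by Itga4, pairs with β7, encoded by Itgb7, to bind MAdCAM-1 in gut vessels, or with β1, encoded by Itgb1, to bind VCAM-1.

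Levels are in TPM, a value per transcript length and library, and the files keep no sequencing depth, so the precision of low values is unknown. Differences are on the log2(TPM + 1) scale, which understates changes of low genes, and are given ± standard error with n = 3 libraries per group. Tests are by limma over 12147 genes, with p adjusted by the Benjamini-Hochberg method and a call at an adjusted p below 0.05. The spread of each gene was estimated from all 27 libraries, so the error of a group that varied more is understated. B cell markers summed to 1422 to 8526 TPM in every library, and all 8 of them were above 0. Markers of several other blood cells differed between naive and cultured cells: erythroid and platelet genes summed to 697 to 1312 TPM in naive cells against 7.04 to 156 TPM in culture, and macrophage and monocyte genes to 72.1 to 102 against 0.738 to 12.4 TPM. The plasma cell list summed to 98.0 to 198 TPM in naive cells and 12.6 to 68.4 TPM in culture, and the dendritic cell list to 5.20 to 5.73 TPM and 1.77 to 10.6 TPM. The part of these cells in the differences from naive cells was not tested. The T cell list summed to 181 to 347 TPM in naive cells and 12.2 to 178 TPM in culture. Its genes differed: Cd2 reached 323 TPM, Lck 30.6 TPM and Trac 5.23 TPM, while Cd3d, Cd3e and Cd3g stayed at or below 2.14 TPM. The part of T cells was not tested either. The neutrophil and NK lists summed to at most 0.607 and 2.34 TPM. Mitochondrial transcripts made up 5.5% of naive replicate 1 against 12.71% and 13.54% of the other naive libraries, and 7.89% of replicate 1 with IL-4 at 24 h against 11.63% and 10.97%. Replicate 3 at 6 h was also low, with 6.91% under IL-4 against 10.16% and 10.63%, and 7.27% under IL-21 against 10.91% and 10.23%. The only pair left out together was that of the replicate 1 libraries. At 6 h, replicate 1 was the highest library in all 4 of 4 cultured groups for every member except Itgb7.

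RefSeq start-site windows on GRCm38.p6, each 250 bases before to 50 bases after a start, were at hand for 5 of the 8 genes (6 windows): Gpr183, Ccr6, Cxcr4, Itgb7 and Itga4. IL-21 is known to signal mainly through STAT3 and IL-4 through STAT6, and STAT dimers bind palindromes of the form TTCNNNGAA or, for STAT6, TTCNNNNGAA. Ccr6 and Itga4 are shown because they moved in opposite directions with IL-21, and Itgb7 because it was the member nearest to 0 in culture. Capitals mark TTCNNNGAA in Ccr6, and CACCC or its complement GGGTG, the core bound by KLF factors, in Itga4 and Itgb7. All 3 are written 5′ to 3′ on the strand of the gene.
Ccr6, first start site, plus strand, chr17:8235793-8236092: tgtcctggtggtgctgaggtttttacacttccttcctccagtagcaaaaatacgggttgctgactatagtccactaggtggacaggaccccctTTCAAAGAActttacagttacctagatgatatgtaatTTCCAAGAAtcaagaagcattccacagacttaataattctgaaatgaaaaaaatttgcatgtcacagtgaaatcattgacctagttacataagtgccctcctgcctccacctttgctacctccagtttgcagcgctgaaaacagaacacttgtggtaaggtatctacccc
Itga4, plus strand, chr2:79255176-79255475: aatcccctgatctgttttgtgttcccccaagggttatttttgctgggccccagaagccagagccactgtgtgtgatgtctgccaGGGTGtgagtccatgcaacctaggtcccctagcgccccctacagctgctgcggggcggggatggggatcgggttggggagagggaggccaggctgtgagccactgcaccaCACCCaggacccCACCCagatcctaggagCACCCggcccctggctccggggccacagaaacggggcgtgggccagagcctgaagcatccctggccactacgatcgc
Itgb7, minus strand, chr15:102231886-102232185: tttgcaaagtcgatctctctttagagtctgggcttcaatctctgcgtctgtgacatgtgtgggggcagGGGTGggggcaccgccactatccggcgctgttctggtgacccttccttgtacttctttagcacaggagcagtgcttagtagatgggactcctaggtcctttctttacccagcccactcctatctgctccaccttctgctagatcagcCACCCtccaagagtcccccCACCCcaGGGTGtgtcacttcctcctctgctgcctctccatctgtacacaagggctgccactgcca
The 2 matches in Ccr6 read TTCAAAGAA, at bases -157 to -149 from the start, and TTCCAAGAA, at bases -120 to -112; 8.3% of 32851 windows of the same length held at least 1 match on either strand. The other 5 windows held none, and TTCNNNNGAA, found in 7.0% of all windows, was in none of the 6. CACCC occurred 4 times in Itga4, 4 times in Itgb7 and once in Cxcr4, and 57.5% of all windows held it. The forkhead sequence GTAAACA (3.6% of windows) and the NF-kB sequence GGGNNTTTCC (1.6%) were in none of the 6. A match describes letters and is not evidence of binding.

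Against naive cells, 3 of the 8 members were called after 6 h of anti-CD40 alone, beside 29.9% of all genes tested, and 5 of 8 after 24 h, beside 26.8%. IL-21 added to anti-CD40 gave 3 calls at 6 h (12.1% of all genes) and 3 at 24 h (24.2%), the latter 5 after median-of-ratios rescaling, with Cxcr4 and Cxcr5 added. Added to anti-CD40 with IL-4 it gave 1 call at 6 h (2.54%) and 3 at 24 h (24.2%). IL-4 added to anti-CD40 gave 2 calls at 6 h (4.04%) and 6 at 24 h (31.4%). All 6 were lower, beside 23.1% of all genes called lower, a share that was 16.2% after rescaling, under which the 6 members were still called lower. IL-4 added to anti-CD40 with IL-21 gave 2 calls at 6 h (4.16%) and 1 at 24 h (6.75%). Several of these shares lie near the share of all genes, and the comparisons share libraries, so their counts are not independent. In the 24 h comparison of IL-4 the median difference of the members was -1.47 against -0.31 over all genes. The all-gene median was -0.004 after rescaling, and that for IL-21 added to IL-4 at 24 h went from 0.38 to -0.006.

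In 3 comparisons at 6 h, libraries of the same replicate number deviated together, and for these a fit with a block for that number is also given. The block was fitted over all 27 libraries, including groups whose numbers did not pair. Adding IL-21 to anti-CD40 then gave 4 calls (13.6% of all genes), adding it to the IL-4 condition gave 2 (3.13%), and adding IL-4 to anti-CD40 gave 3 (4.82%). The added genes were Ccr7, Ccr6 and Gpr183, in that order. Single libraries also mattered: without replicate 2 of anti-CD40 with IL-21 the 3 calls of IL-21 at 6 h became 1. The 2 calls of IL-4 with anti-CD40 at 6 h became 1 without replicate 1 or 2 of anti-CD40 alone or replicate 2 or 3 with IL-4. The 2 calls of IL-4 with IL-21 at 6 h became 1 without replicate 1 or 2 with IL-21 or any replicate with both cytokines.

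From 6 h to 24 h, 6 of the 8 members were called with anti-CD40 alone (24.3% of all genes), 2 with IL-4 (25.4%), 2 with IL-21 (35.5%) and 3 with both cytokines (30.2%). The shares with IL-4 and with IL-21 lay below those of all genes. Leaving out replicate 3 at 24 h took the count with anti-CD40 alone to 3. The count with IL-4 was 1 without replicate 1 or 2 at 6 h or replicate 2 or 3 at 24 h. The interaction of both cytokines, which asks whether IL-21 acts differently when IL-4 is present, gave 0 calls at 6 h (0.412% of all genes), with 0 members at an unadjusted p below 0.05. At 24 h it gave 2 calls (5.8%), and 4 without replicate 1 of anti-CD40 with IL-4. The change of the IL-21 effect from 6 h to 24 h gave 0 calls (4.44%), with 2 members at an unadjusted p below 0.05. The change of the IL-4 effect gave 1 (7.19%), which became 2 without replicate 1 of anti-CD40 alone at 6 h or replicate 3 with IL-4 at 6 h, and 4 without replicate 1 with IL-4 at 24 h. Without both replicate 1 libraries of deviating mitochondrial share, the naive comparison at 6 h gave 5 calls, the 24 h interaction 5 and the change of the IL-4 effect 4.

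**Figure D1:**
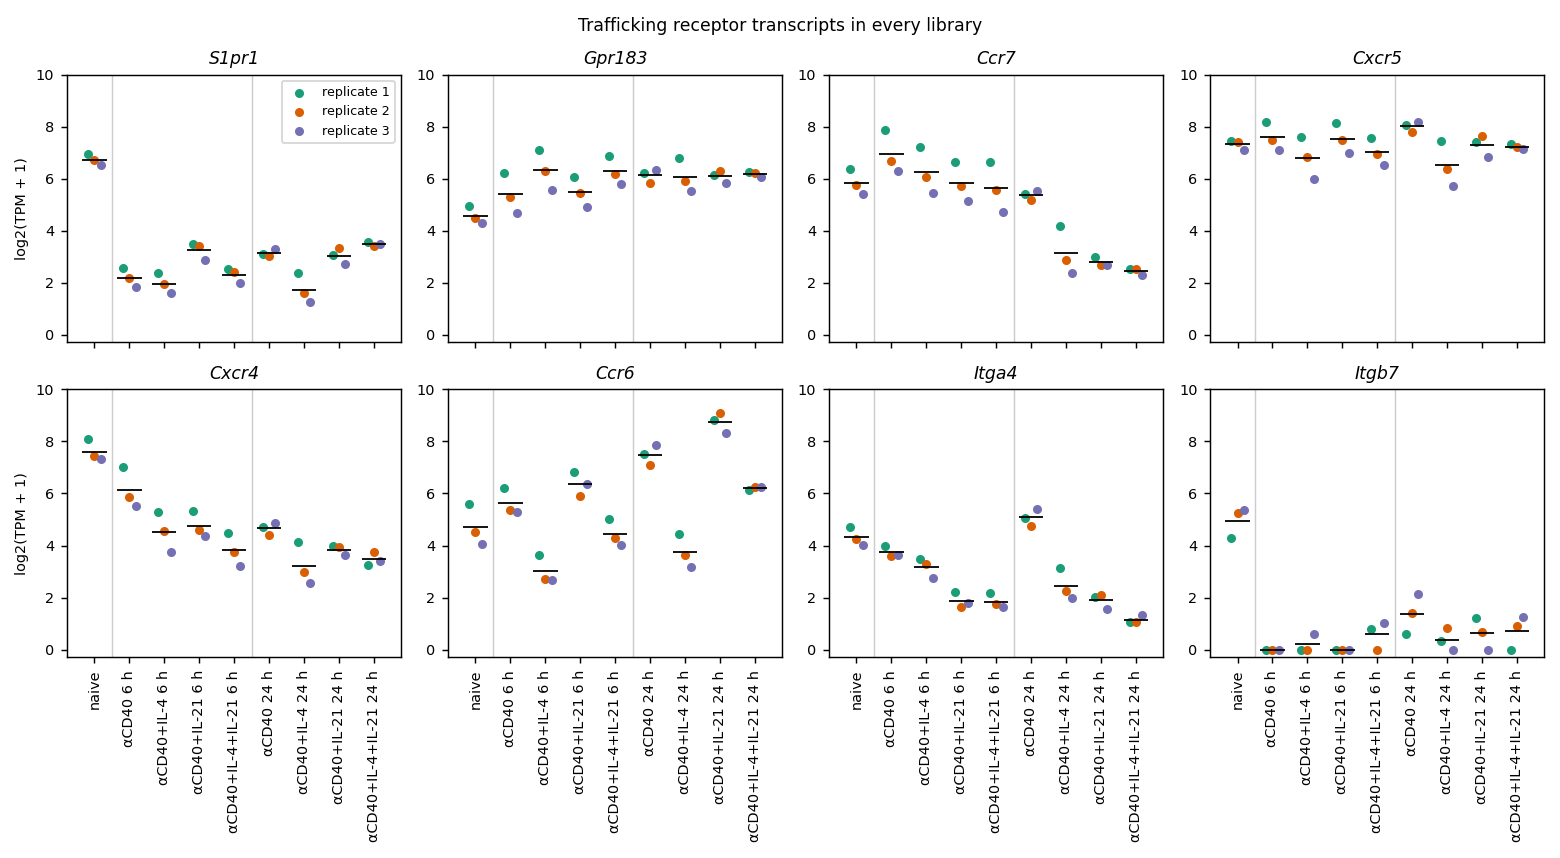
Levels of the 8 genes as log2(TPM + 1) (y axis) in all 27 libraries by group (x axis); points are libraries coloured by replicate number and lines are group means. S1pr1 and Itgb7 sit far lower in every cultured group than in naive cells, Ccr7 drops between 6 h and 24 h, and Ccr6 is lowest with IL-4 in the absence of IL-21 and highest with IL-21 at 24 h.

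S1pr1 (ENSMUSG00000045092, chr3:115710433-115715072, minus strand) was far lower in every cultured group than in naive cells. Naive libraries held 123, 104 and 89.9 TPM, those with anti-CD40 alone 4.87, 3.48 and 2.59 TPM at 6 h and 7.57, 7.19 and 8.87 TPM at 24 h. All 24 cultured libraries lay between 1.39 and 10.9 TPM, well under the lowest naive library. S1pr1 fell by 4.54 ± 0.27 on the log2 scale at 6 h (adjusted p = 2.54e-11) and by 3.58 ± 0.27 at 24 h (adjusted p = 1.59e-09). In bulk samples, fewer cells that carry a transcript and less of it per cell cannot be told apart, here and below.

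Within culture, S1pr1 moved with both cytokines. With IL-21 at 6 h it stood at 10.1, 9.50 and 6.37 TPM, above all 3 libraries with anti-CD40 alone (1.06 ± 0.27, adjusted p = 0.0102). The call ended when replicate 1 or 2 with IL-21, or replicate 3 of its control group, was left out (adjusted p between 0.0509 and 0.0649). At 24 h the difference was -0.11 ± 0.27 (adjusted p = 0.808), with 7.44, 9.05 and 5.50 TPM under IL-21. IL-4 at 24 h left 4.14, 1.99 and 1.39 TPM, all below anti-CD40 alone, and S1pr1 fell by 1.41 ± 0.27 on the log2 scale (adjusted p = 0.000431). With both cytokines at 24 h the values were 10.9, 9.68 and 10.2 TPM, above every library with IL-4. The mean was the highest of any cultured group, although the libraries overlapped those with IL-21 at 6 h. IL-21 thus raised S1pr1 by 1.76 ± 0.27 in the presence of IL-4 (adjusted p = 7.38e-05), and the difference between the IL-21 effects with and without IL-4 was itself called (1.87 ± 0.38, adjusted p = 0.00429). At 6 h that difference was -0.72 ± 0.38 (adjusted p = 0.806), with 4.10, 2.83 and 2.04 TPM under IL-4 and 4.77, 4.32 and 2.92 TPM under both. IL-4 added to IL-21 at 6 h gave -0.95 ± 0.27 (adjusted p = 0.0487), a call lost without any of replicates 1 and 2 with IL-21 or replicates 1 to 3 with both cytokines (adjusted p between 0.074 and 0.219). From 6 h to 24 h, S1pr1 rose with both cytokines (1.19 ± 0.27, adjusted p = 0.00183) and with anti-CD40 alone (0.96 ± 0.27, adjusted p = 0.0123), the latter lost without replicate 3 of either group (adjusted p between 0.0537 and 0.0714).

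Other genes of the sphingosine-1-phosphate axis and of lymphocyte egress also fell on leaving the naive state. Of 15 such genes, 13 were tested, and 10 fell and none rose after 6 h of anti-CD40 (median -1.03 against 0.06 over all genes). Over all genes, 13.3% were called lower. Klf2, the transcription factor known to drive S1pr1 in lymphocytes, went from 528 ± 205 to 31.2 ± 4.13 TPM (SD, n = 3), and so fell by 3.98 ± 0.32 on the log2 scale. Spns2, a sphingosine-1-phosphate exporter, fell by 2.85 ± 0.18 and S1pr3, another receptor of this lipid, by 2.45 ± 0.32. Cd69, whose protein removes S1PR1 from the cell surface, was also among the lower genes (-0.71 at 6 h and -1.83 at 24 h). After 24 h, 6 of the 13 were lower, beside 7.85% of all genes, Klf2 at 24.5 ± 2.41 TPM among them, and none was higher.

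IL-4 split this group. S1pr3 rose with IL-4 at 6 h, from 0.348 ± 0.0408 to 6.08 ± 1.38 TPM (2.38 ± 0.32, adjusted p = 2.9e-05), and at 24 h (2.66 ± 0.32, adjusted p = 2.0e-06), when the libraries with IL-4 stood at 13.2 ± 10.3 TPM. Cd69 rose by 1.43 ± 0.21 with IL-4 at 6 h, to 353 ± 58.6 from 130 ± 14.8 TPM. It also rose with IL-21 at 6 h (1.05 ± 0.21, adjusted p = 0.0016), where after rescaling the adjusted p was 0.0615. At 24 h with IL-4, 5 of the 13 genes were lower and 2 higher, beside 23.1% of all genes lower (median -0.45 against -0.31 over all genes). The lower genes numbered 4 after rescaling, 8 without the pair of replicate 1 libraries with deviating mitochondrial shares and 3, with 1 higher, when only the 2 groups were fitted. Cd69, 1 of the 2 higher genes, was not called without replicate 3 of either group (adjusted p between 0.0548 and 0.133).

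Adding IL-21 to IL-4 at 24 h went with higher levels in 9 of the 13 genes, beside 21.8% of all genes, and lower levels in none (median 1.02 against 0.38 over all genes). After rescaling, 6 were higher and 1 lower. The count of higher genes was 11 without the pair of replicate 1 libraries with deviating mitochondrial shares and 3 when only the 2 groups were fitted. Klf2 stood at 117 ± 6.47 against 20.7 ± 15.5 TPM (2.67 ± 0.32, adjusted p = 2.7e-06). Foxo1, a transcription factor known to act upstream of Klf2 in lymphocytes, was at 20.5 ± 0.888 against 5.85 ± 4.62 TPM (1.86 ± 0.30), a call lost when only the 2 groups were fitted (adjusted p = 0.0621). With anti-CD40 alone as the base, IL-21 at 24 h raised 1 gene of the 13, beside 17.8% of all genes. This was Cd69 (1.02 ± 0.21), whose adjusted p was 0.112 after rescaling.

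Gpr183 (ENSMUSG00000051212, chr14:121952551-121965195, minus strand), the EBI2 gene, was higher after 24 h of anti-CD40 than in naive cells. Naive libraries held 29.4, 21.6 and 18.4 TPM and the 24 h libraries 73.4, 56.3 and 79.3 TPM, with no overlap (1.56 ± 0.40, adjusted p = 0.00579). At 6 h the values were 72.3, 38.1 and 24.6 TPM and overlapped those of naive cells (0.82 ± 0.40, adjusted p = 0.134). IL-4 at 6 h gave 138, 76.8 and 46.3 TPM, so that each replicate number stood higher than with anti-CD40 alone while the groups overlapped. That difference was 0.93 ± 0.40 (adjusted p = 0.309), and passed once a replicate block was fitted (0.93 ± 0.25, adjusted p = 0.0349). No IL-21 difference of Gpr183 was called in the 4 comparisons, which gave values between -0.05 and 0.11 on the log2 scale and a standard error of 0.40. After rescaling they lay between -0.46 and -0.039, and none was called (adjusted p between 0.362 and 0.970). Means with IL-21 were 45.7 ± 18.7 TPM at 6 h and 67.4 ± 11 TPM at 24 h (SD, n = 3), against 45 ± 24.6 and 69.7 ± 11.9 TPM without cytokine. Gpr183 lies within the span of Ubac2, whose level was 3.43 to 40.0 TPM, and whether counting used strand is not given in the sources used here.

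Ccr7 (ENSMUSG00000037944, chr11:99144196-99155077, minus strand), the receptor for CCL19 and CCL21, was low at 24 h in every group that had received a cytokine. Naive libraries held 82.2, 52.6 and 41.7 TPM. With anti-CD40 alone the values were 235, 100 and 76.4 TPM at 6 h, a difference from naive cells of 1.09 ± 0.51 (adjusted p = 0.119), and 41.5, 35.3 and 45.1 TPM at 24 h. The 24 h libraries overlapped the lowest naive library and lay below all 6 h libraries with anti-CD40 alone. From 6 h to 24 h with anti-CD40 alone Ccr7 fell by 1.57 ± 0.51 on the log2 scale (adjusted p = 0.0293). It was not called without replicate 1 at 6 h or any 1 of the 3 libraries at 24 h (adjusted p between 0.0607 and 0.167), nor with no filter on low values (adjusted p = 0.0721).

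With a cytokine, Ccr7 changed from 6 h to 24 h by -3.10 ± 0.51 with IL-4, -3.06 ± 0.51 with IL-21 and -3.18 ± 0.51 with both (adjusted p = 0.000131, 7.43e-05 and 5.81e-05). Whether these falls differed from the one with anti-CD40 alone depended on the fit. The change of the cytokine effect was not called for IL-4 (-1.54 ± 0.73, adjusted p = 0.187) or IL-21 (-1.49 ± 0.73, adjusted p = 0.330). With a replicate block both were called (adjusted p = 0.0325 and 0.0490), although the numbers did not pair throughout. Without both replicate 1 libraries of deviating mitochondrial share, that of IL-4 was called (-2.05, adjusted p = 0.0282). At 24 h, libraries with IL-4 held 17.0, 6.26 and 4.16 TPM, those with IL-21 6.94, 5.37 and 5.39 TPM and those with both 4.77, 4.73 and 3.94 TPM. All 9 lay below the 3 libraries with anti-CD40 alone. IL-21 lowered Ccr7 by -2.59 ± 0.51 (adjusted p = 0.000721) and IL-4 by -2.24 ± 0.51 (adjusted p = 0.00218). On top of the other cytokine neither difference was called: -0.68 ± 0.51 for IL-21 (adjusted p = 0.339) and -0.33 ± 0.51 for IL-4 (adjusted p = 0.808). The interaction was 1.91 ± 0.73 (adjusted p = 0.136). It was called with a replicate block (adjusted p = 0.00918) and without both replicate 1 libraries of deviating mitochondrial share (2.43, adjusted p = 0.0171). At 6 h, IL-21 gave 98.2, 52.0 and 34.4 TPM, lower than anti-CD40 alone in each replicate number but overlapping as groups. This difference of -1.11 was called with the replicate block (± 0.31, adjusted p = 0.019) and not without it (± 0.51, adjusted p = 0.189).

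Cxcr5 (ENSMUSG00000047880, chr9:44511787-44561877, minus strand), the follicular homing receptor for CXCL13, kept a high level throughout, from 51.5 to 290 TPM over the 27 libraries. Naive libraries held 173, 169 and 137 TPM. With anti-CD40 alone they held 286, 180 and 135 TPM at 6 h and 262, 220 and 290 TPM at 24 h. The difference from naive cells was 0.27 ± 0.40 at 6 h (adjusted p = 0.690) and 0.69 ± 0.40 at 24 h (adjusted p = 0.221). IL-4 at 24 h gave 172, 82.0 and 51.5 TPM, all below the libraries with anti-CD40 alone (-1.50 ± 0.40, adjusted p = 0.00722), a call lost without replicate 3 with IL-4 (adjusted p = 0.0681). With both cytokines at 24 h the values were 158, 146 and 141 TPM, inside the range with IL-4. The 4 differences of Cxcr5 with IL-21 lay between -0.72 ± 0.40 and 0.71 ± 0.40, and none was called. The lowest, with IL-21 added to anti-CD40 at 24 h, was called after rescaling (-0.995, adjusted p = 0.0386). It was also called when only the 2 groups were fitted (adjusted p = 0.0446). The highest was with IL-21 added to IL-4 at 24 h. It was called without both replicate 1 libraries of deviating mitochondrial share (1.18, adjusted p = 0.0225). The 24 h interaction was 1.43 ± 0.57 (adjusted p = 0.154). It was called with a replicate block (adjusted p = 0.0230) and without the same pair of replicate 1 libraries (adjusted p = 0.0169). Cxcr5 overlaps Bcl9l, at 4.07 to 45.8 TPM, in the annotation.

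Cxcr4 (ENSMUSG00000045382, chr1:128588199-128592293, minus strand), the CXCL12 receptor, was highest in naive cells and lower in every cultured group. Naive libraries held 274, 171 and 158 TPM. With anti-CD40 alone, values were 129, 57.8 and 45.1 TPM at 6 h and 25.2, 20.2 and 28.2 TPM at 24 h. Every cultured library was below every naive one, and with anti-CD40 alone the 24 h libraries were below all those of 6 h. Cxcr4 fell by 1.47 ± 0.43 on the log2 scale at 6 h (adjusted p = 0.0111) and by 2.95 ± 0.43 at 24 h (adjusted p = 2.09e-05). The first call was lost without naive replicate 1 or replicate 3 at 6 h (adjusted p between 0.0567 and 0.0753).

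Both cytokines went with less Cxcr4 at 6 h. IL-21 gave 39.4, 23.1 and 19.6 TPM, below all libraries with anti-CD40 alone (-1.38 ± 0.43, adjusted p = 0.0373). IL-4 gave 38.0, 22.3 and 12.5 TPM, likewise with no overlap (-1.61 ± 0.43, adjusted p = 0.0301). Each of these calls was lost without replicate 1 or 2 of the control group, or 2 or 3 of the cytokine group (adjusted p between 0.0564 and 0.244 for IL-21, 0.0536 and 0.261 for IL-4). Each was also lost when only the 2 groups were fitted (adjusted p = 0.0737 and 0.115), and that of IL-4 with no filter on low values (adjusted p = 0.0744). With the replicate block both stayed called, that of IL-21 at -1.38 ± 0.30 (adjusted p = 0.00291). With both cytokines at 6 h the values were 21.2, 12.6 and 8.20 TPM, lower in each replicate number than with either cytokine, although neither step was called (-0.71 ± 0.43, adjusted p = 0.678, and -0.95 ± 0.43, adjusted p = 0.334). At 24 h, IL-4 gave 16.5, 6.88 and 4.88 TPM, below anti-CD40 alone (-1.44 ± 0.43, adjusted p = 0.0137). This call was lost without replicate 3 of anti-CD40 alone or replicate 2 or 3 with IL-4 (adjusted p between 0.0582 and 0.0979), and when only the 2 groups were fitted (adjusted p = 0.0518). IL-21 at 24 h gave 14.6, 14.5 and 11.3 TPM (-0.82 ± 0.43, adjusted p = 0.177), a difference called after rescaling (-1.07, adjusted p = 0.0351). From 6 h to 24 h Cxcr4 fell by 1.48 ± 0.43 with anti-CD40 alone (adjusted p = 0.0146) and by 1.31 ± 0.43 with IL-4 (adjusted p = 0.0286). The first was lost without replicate 1 at 6 h or replicate 2 at 24 h (adjusted p between 0.0524 and 0.102). The second was lost without replicate 1 or 2 at 6 h or 2 or 3 at 24 h (adjusted p between 0.0691 and 0.167).

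**Figure D2:**
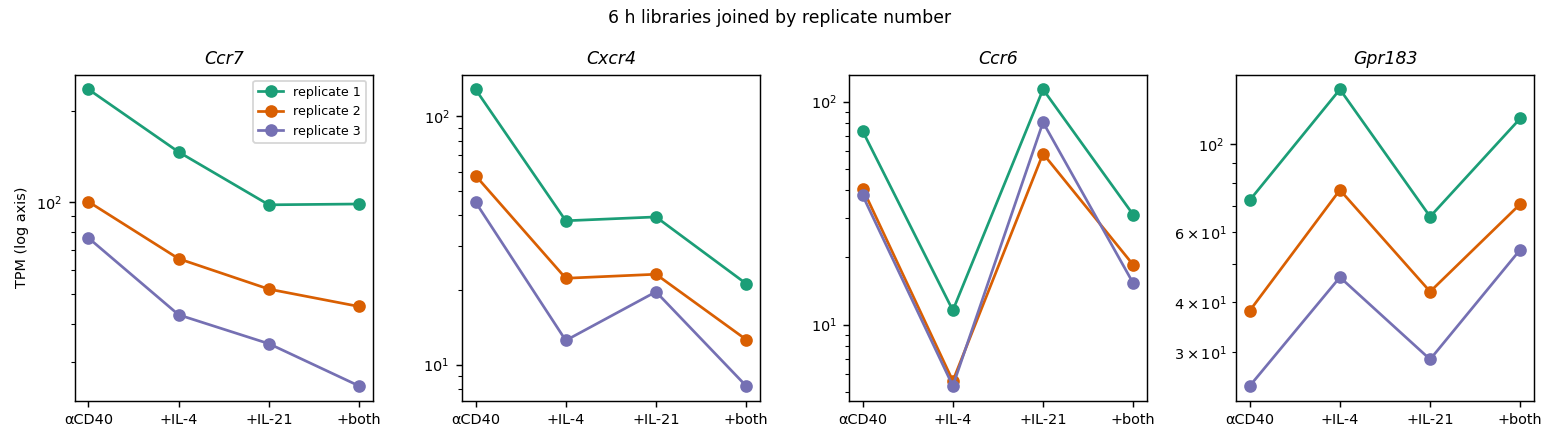
TPM (log y axis) of Ccr7, Cxcr4, Ccr6 and Gpr183 in the 12 libraries of 6 h, with libraries of the same replicate number joined across anti-CD40 alone, with IL-4, with IL-21 and with both (x axis). Replicate 1 is the highest line in each panel and the step from anti-CD40 alone to IL-4 runs the same way in all 3 lines of each panel, upward for Gpr183 and downward for the others.

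Ccr6 (ENSMUSG00000040899, chr17:8236043-8257141, plus strand), the receptor for CCL20 and a marker of memory B cells and their precursors, had the widest range in culture, 5.31 to 551 TPM. Naive libraries held 47.7, 22.1 and 15.5 TPM. With anti-CD40 alone they held 73.7, 40.7 and 37.9 TPM at 6 h (0.90 ± 0.39, adjusted p = 0.0906) and 182, 138 and 232 TPM at 24 h. The 24 h libraries were all above those of naive cells and of 6 h. Ccr6 rose by 2.77 ± 0.39 from naive cells to 24 h (adjusted p = 1.57e-05) and by 1.87 ± 0.39 from 6 h to 24 h (adjusted p = 0.00133).

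IL-4 and IL-21 moved Ccr6 in opposite directions at 24 h. IL-4 at 6 h gave 11.6, 5.59 and 5.31 TPM, under all libraries with anti-CD40 alone (-2.62 ± 0.39, adjusted p = 0.000114). At 24 h it gave 20.7, 11.4 and 8.04 TPM (-3.75 ± 0.39, adjusted p = 2.82e-07). IL-21 at 24 h gave 458, 551 and 320 TPM, all above anti-CD40 alone (1.26 ± 0.39, adjusted p = 0.0222). That call was lost without replicate 1 or 2 of either group (adjusted p between 0.0543 and 0.106). At 6 h IL-21 gave 113, 58.4 and 80.8 TPM, overlapping anti-CD40 alone (0.73 ± 0.39, adjusted p = 0.275). With both cytokines, values were 31.1, 18.5 and 15.3 TPM at 6 h and 69.3, 75.8 and 75.3 TPM at 24 h, between those of each cytokine alone at either time. Against IL-4 the rise at 24 h was 2.47 ± 0.39 (adjusted p = 0.000113). At 6 h the difference was 1.43, called with the replicate block (± 0.29, adjusted p = 0.00502) and not without it (± 0.39, adjusted p = 0.056). Against IL-21 the falls were -1.92 ± 0.39 at 6 h (adjusted p = 0.0045) and -2.54 ± 0.39 at 24 h (adjusted p = 0.000121). Ccr6 was thus lower with IL-4 in all 4 comparisons of that cytokine, and the interaction was not called at 6 h (0.70 ± 0.56, adjusted p = 1) or 24 h (1.21 ± 0.56, adjusted p = 0.225). Without both replicate 1 libraries of deviating mitochondrial share, the 24 h interaction was called (1.55, adjusted p = 0.0256).

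**Figure D3:**
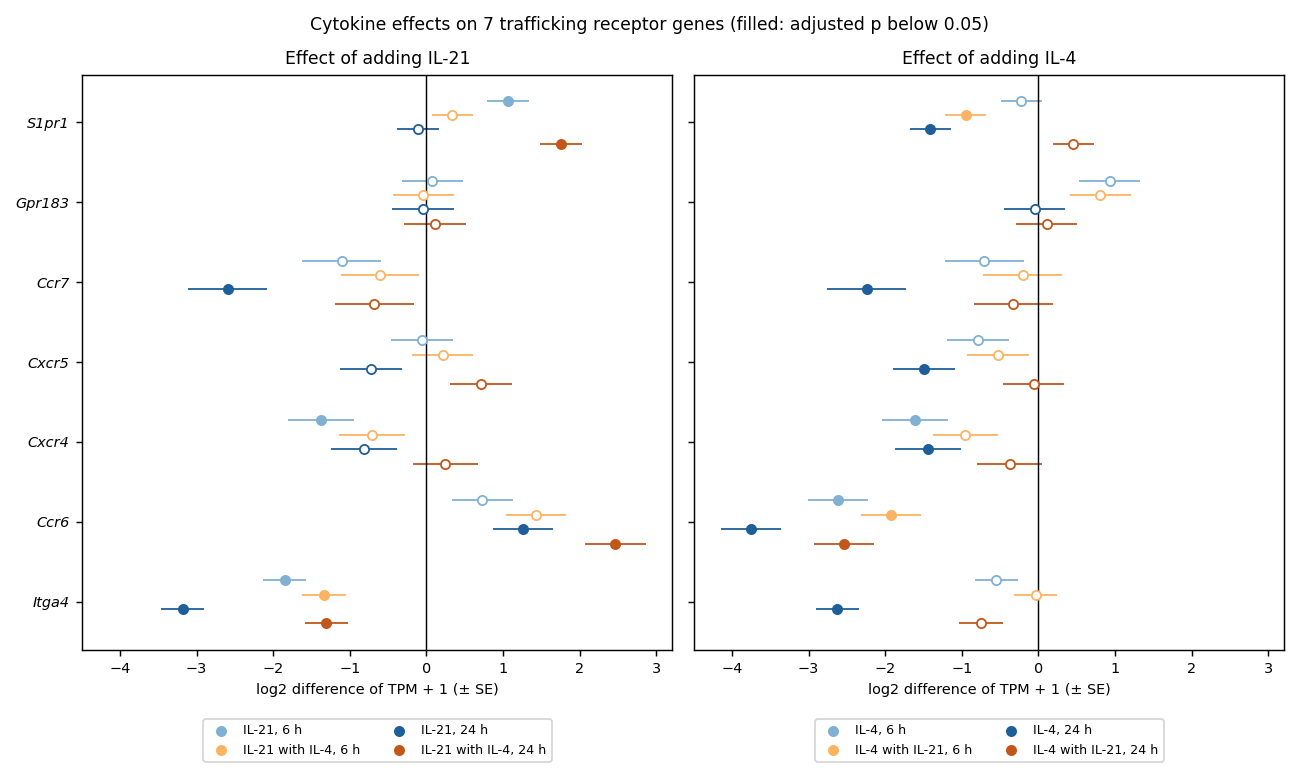
Differences in log2(TPM + 1) ± standard error (x axis) when IL-21 (left) or IL-4 (right) was added, without and with the other cytokine, at 6 h and 24 h, for 7 genes (y axis; Itgb7 is left out because groups were listed at 0); filled points have an adjusted p below 0.05. Ccr6 lies right of 0 in all IL-21 comparisons and left of 0 in all IL-4 comparisons, and Itga4 lies left of 0 in all IL-21 comparisons.

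Of 19 other chemokine receptor genes, 8 were expressed enough to be tested. After 6 h of anti-CD40, 5 of the 8 were lower than in naive cells (3 without naive replicate 1 or 3), beside 13.3% of all genes. Ccr3 (-2.02 ± 0.14) and the decoy receptor gene Ackr2 (-2.24 ± 0.35) fell furthest. Ackr3, which scavenges CXCL12 and so shares the ligand of Cxcr4, fell with IL-21 at 24 h, from 4.62 ± 0.758 to 0.152 ± 0.102 TPM (-2.28 ± 0.21), and from 10.6 ± 0.506 to 0.443 ± 0.0897 TPM in the presence of IL-4 (-3.01 ± 0.21). With IL-4 alone at 24 h it was higher (1.06 ± 0.21), a call lost when only the 2 groups were fitted (adjusted p = 0.0523). Ccr1 rose from naive cells to 24 h of anti-CD40 (1.46 ± 0.17) and fell with IL-4 at 24 h (-3.08 ± 0.17). In all, 3 of the 8 receptors were higher and 3 lower with IL-21 at 24 h, beside 24.2% of all genes called, against 1 higher and 4 lower with IL-4, beside 31.4%. When only the compared groups were fitted, these counts were 2 and 1 with IL-21 and 0 and 2 with IL-4.

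Itga4 (ENSMUSG00000027009, chr2:79255426-79333123, plus strand), the α4 integrin gene, was lower with IL-21 in all 4 comparisons. With anti-CD40 alone it stood at 14.8, 10.9 and 11.4 TPM at 6 h and 32.5, 25.9 and 41.7 TPM at 24 h, against 24.9, 17.8 and 15.3 TPM in naive cells. The 24 h libraries were above all the others, and Itga4 rose from 6 h to 24 h by 1.35 ± 0.28 (adjusted p = 0.00134). Against naive cells the differences were -0.59 ± 0.28 at 6 h (adjusted p = 0.131; -0.73 and 0.00372 after rescaling) and 0.76 ± 0.28 at 24 h (adjusted p = 0.0513). IL-21 left 3.61, 2.10 and 2.49 TPM at 6 h (-1.85 ± 0.28, adjusted p = 9.78e-05) and 3.04, 3.30 and 1.96 TPM at 24 h (-3.18 ± 0.28, adjusted p = 2.3e-08). No library with IL-21 reached those without it at the same time. With IL-4 present, IL-21 left 3.46, 2.34 and 2.12 TPM against 10.2, 8.90 and 5.73 TPM at 6 h (-1.34 ± 0.28, adjusted p = 0.00711), a call lost without replicate 1 with IL-4 (adjusted p = 0.0605). At 24 h it left 1.11, 1.08 and 1.48 TPM against 7.86, 3.71 and 2.94 TPM (-1.31 ± 0.28, adjusted p = 0.00259), a call lost when only the 2 groups were fitted (adjusted p = 0.0808).

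IL-4 lowered Itga4 at 24 h by -2.62 ± 0.28 (adjusted p = 4.34e-07), while at 6 h the difference was -0.55 ± 0.28 (adjusted p = 0.476). The change of the IL-4 effect between the times was called (-2.07 ± 0.40, adjusted p = 0.00354). So was the interaction at 24 h, 1.88 ± 0.40 (adjusted p = 0.00584), in which IL-21 lowered Itga4 by less with IL-4 present than without it. The interaction was not called when only its 4 groups were fitted (adjusted p = 0.0523). The lowest levels, 1.08 to 1.48 TPM with both cytokines at 24 h, lie near the 1 TPM added before logs, which understates differences there. Itga4 overlaps Cerkl, at 0.470 to 7.66 TPM, in the annotation.

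Itgb7 (ENSMUSG00000001281, chr15:102215995-102231944, minus strand), the β7 integrin gene, was found almost only in naive cells. Naive libraries held 18.4, 36.8 and 39.8 TPM, and the lowest of them was replicate 1. All 3 libraries with anti-CD40 alone at 6 h were listed at 0, as were all 3 with IL-21 at 6 h, 2 of 3 with IL-4 (0.507 TPM in replicate 3) and 1 of 3 with both cytokines (0.721 and 1.01 TPM in replicates 1 and 3). At 24 h the libraries with anti-CD40 alone held 0.533, 1.64 and 3.37 TPM, and no other 24 h library exceeded 1.41 TPM. In all, 12 of 27 libraries were listed at 0. A value of 0 in such a file can be a failed estimate: among the 3468 genes whose median reached 20 TPM, 19 had a 0 somewhere. Itgb7 was called lower than in naive cells at 6 h (adjusted p = 1.75e-09) and 24 h (adjusted p = 4.65e-07). With anti-CD40 alone it was called higher at 24 h than at 6 h (adjusted p = 0.0126), which was lost without replicate 3 at 24 h (adjusted p = 0.0992). No cytokine comparison of Itgb7 was called.

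The other partner of α4, Itgb1, was at or below 1.31 TPM on average in every group, the highest with IL-4 at 24 h (1.31 ± 0.726 TPM, SD, n = 3). Of 21 other integrin and adhesion genes, 17 were tested. Itgb2, the β2 chain shared by LFA-1 and Mac-1, rose with IL-21 at 24 h from 9.25 ± 1.52 to 54.9 ± 19.3 TPM (2.39 ± 0.44, adjusted p = 0.00032), while Itga4 fell in the same libraries. Its α partners Itgam (2.13 ± 0.21) and Itgax (1.71 ± 0.20) rose too, from low levels, with Itgam at 4.05 ± 1.37 TPM. Itgal, the α chain of LFA-1, had a difference of -0.77 and was not called. The macrophage and monocyte marker list summed to 1.12 to 5.16 TPM in these libraries and to 3.71 to 5.07 TPM with anti-CD40 alone at 24 h. The dendritic cell list, which holds Itgax itself, summed to 5.37 to 8.20 against 2.55 to 5.45 TPM, the NK list to 1.81 to 2.23 against 0.919 to 1.01 TPM and the T cell list to 142 to 178 against 45.1 to 71.0 TPM, and their part in these differences was not tested. In all, 5 of the 17 genes rose with IL-21 at 24 h, beside 17.8% of all genes, and none fell (median 0.38 against 0.23 over all genes). After rescaling 4 were higher and 2 lower. In the presence of IL-4 10 rose, beside 21.8% of all genes, and none fell (median 0.77 against 0.38 over all genes). The last count was 5 after rescaling, 6 with no filter, 3 when only the 2 groups were fitted, and 5 or 6 without replicate 2 or 3 of either group. Cd44, a hyaluronan receptor, rose with IL-4 at 24 h, from 25.2 ± 4.34 to 116 ± 67.2 TPM (2.02 ± 0.37), and with both cytokines stood at 178 ± 11.8 TPM against 14.9 ± 2.45 with IL-21 (3.50 ± 0.37). Rasgrp2, whose protein activates the integrin switch RAP1, fell from 248 ± 82.5 TPM in naive cells to 32.8 ± 8.35 TPM at 6 h (-2.87 ± 0.31). Icam1 rose from 16.2 ± 8.1 to 81.9 ± 15.4 TPM at 24 h (2.36 ± 0.49).

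**Figure D4:**
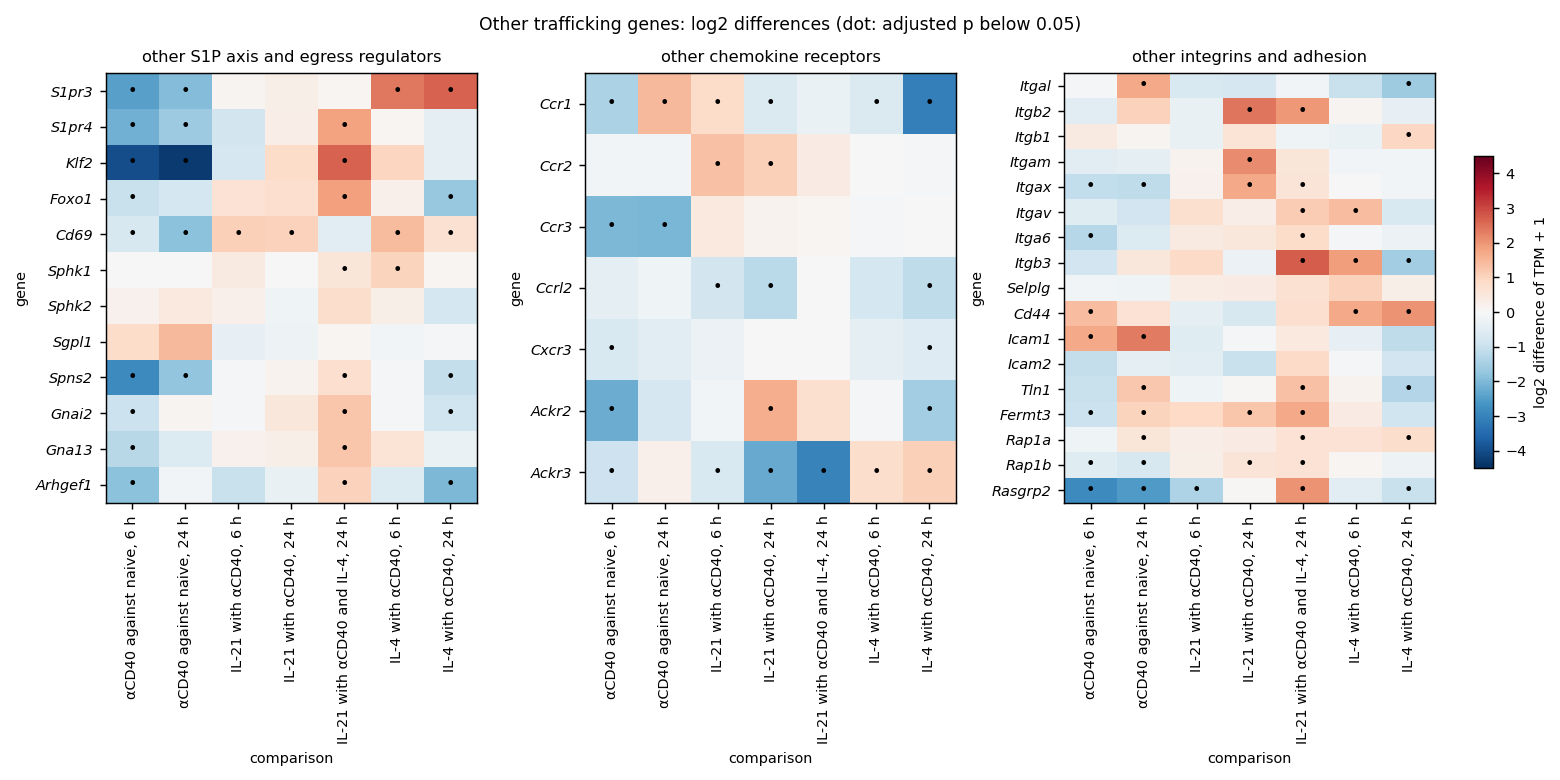
Differences in log2(TPM + 1) (colour) of genes of 3 lists (y axes) in 7 comparisons (x axes); a dot marks an adjusted p below 0.05. Klf2, Spns2 and S1pr3 are lower with anti-CD40 than in naive cells, and 10 of 17 adhesion genes are marked higher with IL-21 added to IL-4 at 24 h.

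Genes that switch off chemokine receptors were mostly lower after 6 h of anti-CD40 than in naive cells. Of 15 kinases, arrestins and RGS genes, which shorten G protein signals, 13 were tested, and 8 fell and none rose after 6 h of anti-CD40 (median -1.17 against 0.06 over all genes), and 1 rose after rescaling. Over all genes, 13.3% were called lower at 6 h. At that time Rgs1 fell from 58.9 ± 19 to 5.85 ± 0.679 TPM (-3.09 ± 0.29) and Rgs2 from 123 ± 18.7 to 14.3 ± 0.604 TPM (-3.01 ± 0.31). At 24 h, 4 were lower, beside 7.85% of all genes, and 1 higher than in naive cells (median -0.56 against 0.25 over all genes). IL-4 at 24 h lowered 9 of the 13, beside 23.1% of all genes, and 7 were lower after rescaling. Rgs2 (-2.27 ± 0.31) and the arrestin genes Arrb1 (-1.99 ± 0.38) and Arrb2 (-2.18 ± 0.47) fell furthest. IL-4 raised 1, Rgs1 (2.19 ± 0.29), to 21.7 ± 9.53 TPM. IL-21 at 24 h lowered 6 (3 if replicate 2 with IL-21 or replicate 3 of its control group was left out), beside 6.33% of all genes, and raised 1. Of 14 genes of migration signalling, such as Dock2 and Rac2, all 14 were tested. With IL-4 at 24 h, 8 were lower, beside 23.1% of all genes (median -0.78 against -0.31 over all genes), and 4 were lower and 1 higher after rescaling. When IL-21 was added to IL-4, 8 were higher, beside 21.8% of all genes (median 0.82 against 0.38), and 5 were higher and 3 lower after rescaling. Fitting only the 2 groups gave 3 lower and 2 higher, and both counts were 3 to 5 without replicate 2 or 3 with IL-4, replicate 1 or 3 of anti-CD40 alone or replicate 3 with both cytokines, where these entered. Of 11 genes for the ligands of these receptors and the enzymes that make them, 1 passed the filter on low values.

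The members differed in how their levels ran over the 27 libraries. The genes most like each, among protein-coding genes with a mean of at least 5 TPM, were found by Pearson's r of log2(TPM + 1), a description over libraries that share groups. For Ccr6 they were the Fc receptor family genes Fcrl5 (r = 0.936) and Fcgr2b (r = 0.898) and the taurine transporter gene Slc6a6 (r = 0.891), for Ccr7 H2-Q6 (0.943), Cd9 (0.931) and Btg1 (0.888). For Cxcr4 they were Cd55 (0.926), Zkscan14 (0.908) and Pnrc1 (0.902), and for Itga4 Tnfrsf18 (0.932), Sesn1 (0.931) and Fam169b (0.927). Likeness was looser for Gpr183, to Slc7a6 (0.848), Slc2a6 (0.827) and Drg2 (0.823), and for Cxcr5, to Slc20a2 (0.849), Yipf3 (0.808) and Npc1 (0.808). S1pr1 was most like Hist1h1c (0.926), Zfp36l2 (0.918) and Tcp11l2 (0.900). Itgb7 was most like Tsc22d3 (0.920), Hist1h1c (0.888) and S1pr1 itself (0.869). Here the naive libraries stood apart: by ranks the likeness of Itgb7 to these 3 was 0.591, 0.299 and 0.462. Between members, S1pr1 and Cxcr4 had r = 0.702, Ccr7 and Cxcr4 0.692, Cxcr4 and Itga4 0.667, and Ccr6 and Ccr7 -0.249.

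In order of mean level, S1pr1, Cxcr4 and Itgb7 were highest in naive cells, apart from all cultured libraries. Itga4 and Cxcr5 were highest with anti-CD40 alone at 24 h, Ccr7 with anti-CD40 alone at 6 h, Ccr6 with IL-21 at 24 h and Gpr183 with IL-4 at 6 h. For Ccr6, the groups with IL-21 (443 ± 116 TPM, SD, n = 3) and with anti-CD40 alone at 24 h (184 ± 47.5 TPM) did not overlap their neighbours, while the other 7 groups formed a chain in which each overlapped the next. For Itga4, anti-CD40 alone at 24 h (33.4 ± 7.93 TPM), naive cells (19.3 ± 4.97 TPM) and anti-CD40 alone at 6 h (12.4 ± 2.1 TPM) stood apart in that order, and both cytokines at 24 h (1.22 ± 0.226 TPM) stood below the rest. For Gpr183 and Cxcr5, every group overlapped the next. Per length, the naive cells held the most of Cxcr4 (201 ± 63.3 TPM), Cxcr5 (159 ± 19.7 TPM) and S1pr1 (106 ± 16.5 TPM) among the 8 transcripts, and the cells with both cytokines at 24 h the most of Cxcr5 (148 ± 8.48 TPM), Ccr6 (73.5 ± 3.58 TPM) and Gpr183 (72.2 ± 4.9 TPM).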

How the data were processed

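The authors deposited 1 table of values in TPM, which per the submitters' processing notes were made with Salmon 1.9.0 on GRCm38/mm10; the annotation is not given in the sources used here. It lists 35604 genes in 27 libraries of polyadenylated RNA, summing to 766384 to 825365 TPM each. Genes were named with GENCODE M21 (35254 matched). Sequencing depth is unknown. Values were used as log2(TPM + 1) for 12147 genes that reached 1 TPM in 3 or more libraries. One mean per group was fitted with limma 3.58.1 in R 4.3.3 (trended moderated variances, 18 residual degrees of freedom). P was adjusted over all tested genes in each of 18 comparisons. The script was tested on simulated data.

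The members and the 6 gene lists (95 genes, 66 tested, of which some are counted but not reported here by name) were chosen with earlier results of these data known. The text names the members, up to 3 called genes per list, direction and comparison, and the 3 most alike genes per member; other genes named, and comparisons shown for them, were chosen after values were seen.

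Replicate numbers are shared between groups. After group means were removed, same-numbered libraries correlated above 0.1 in every pair in 3 comparisons at 6 h: adding IL-21 (0.186 to 0.335), adding IL-21 where IL-4 was present (0.183 to 0.377) and adding IL-4 (0.107 to 0.382). Of 27 libraries, 23 had their highest mean correlation with the libraries of their own number in other groups. There the pairing comes from the data, not from a label. Alternatives tried were rescaling by median of ratios, 0.1 as pseudocount, a 5 TPM filter or none, no variance trend, the block, fits without single libraries or without both replicate 1 libraries that stood apart, and fits of only the compared groups.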

Additional observations from a re-analysis of the deposited data

Results flagged for a closer look

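Effects that differed between conditions by a test of the difference are given here as values (limma, adjusted over all genes). For S1pr1, the IL-21 effect at 24 h was larger with IL-4 than without it by 1.87 ± 0.38 (adjusted p = 0.00429), a rise of 1.76 against a difference of -0.11. It stayed called whichever of its 12 libraries was left out. For Itga4, the IL-21 effect at 24 h differed by 1.88 ± 0.40 (adjusted p = 0.00584), a fall in both settings, of -1.31 with IL-4 and -3.18 without. Also for Itga4, the IL-4 effect changed from 6 h to 24 h by -2.07 ± 0.40 (adjusted p = 0.00354), from -0.55 to -2.62. The 24 h libraries with IL-4 enter all 3, and replicate 1 there had the lower mitochondrial share.

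Among other egress genes, the 24 h interaction of IL-21 with IL-4 was 1.85 for Klf2 and -1.53 for Cd69. Klf2 was not called without replicate 2 or 3 of anti-CD40 with IL-4 (adjusted p = 0.0505 and 0.0546) or when only the 4 groups were fitted (adjusted p = 0.0902). Among adhesion genes at 24 h it was 2.95 for Itgb3, 1.97 for Rasgrp2, -1.11 for Itgax and -1.60 for Itgam. Itgax was not called without replicate 2 of anti-CD40 alone, with IL-21 or with both cytokines (adjusted p between 0.0504 and 0.0577), and with a pseudocount of 0.1 neither Itgax (adjusted p = 0.333) nor Itgam (adjusted p = 0.208) was. For Rgs2 it was 2.34.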

How the results depend on the processing

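Of 4060 alternative values of 292 called single-gene results, 3673 kept direction and call, 387 were no longer called and none reversed. Of 1483 alternative values of 99 member differences that were not called, 1347 kept direction and stayed uncalled, 65 (27 differences) became called and 71 (32 differences) turned sign or went to 0, none of these called in either fit. With a replicate block, the members called numbered 6 for naive cells against 6 h, 2 for IL-21 added to IL-4 at 6 h, 4 for the 24 h interaction, 3 for the change of the IL-21 effect and 3 for that of IL-4. In the 3 comparisons with paired numbers, the block changed no call of a member beyond those reported. Elsewhere the numbers paired in part or not at all. Same-numbered pairs correlated above 0.1 in 15 of 18 cases for the 6 h interaction and 12 of 18 for the change of the IL-4 effect. For IL-21 with anti-CD40 at 24 h they did so in 0 of 3. Members called for IL-21 added to IL-4 at 6 h were 2, and for IL-4 added to IL-21 at 6 h 1, with a pseudocount of 0.1 or a filter at 5 TPM. With no filter, IL-4 at 6 h gave 1 and the time course with IL-4 gave 1. After rescaling, IL-21 at 24 h gave 5, IL-21 with IL-4 at 6 h 2 and the change of the IL-21 effect 2. Without both replicate 1 libraries that stood apart, naive cells against 6 h gave 5, the 24 h interaction 5 and the change of the IL-4 effect 4. With only the compared groups fitted, IL-21 at 24 h gave 5, IL-4 at 6 h 1, IL-4 with IL-21 at 6 h 1, the time course with IL-4 1 and the 24 h interaction 1. The cause of these shifts was not tested.

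Leaving out single libraries gave 3 to 6 members for the time course with anti-CD40 alone, 1 to 3 with IL-4, 1 to 2 for IL-21 at 6 h, 1 to 2 for IL-4 at 6 h, 1 to 2 for IL-4 with IL-21 at 6 h, 4 to 7 for IL-4 at 24 h, 2 to 4 for the 24 h interaction and 1 to 4 for the change of the IL-4 effect. Over all genes, the 2941 calls of IL-21 added to IL-4 at 24 h ranged from 448 to 5890 over all settings, the 3816 of IL-4 at 24 h from 1311 to 5964 and the 705 of the 24 h interaction from 263 to 3023. Rescaling moved the median of all genes by more than 0.1 in every comparison with 24 h libraries. At 24 h it went from 0.249 to 0.016 against naive cells, 0.230 to 0.005 for IL-21 and 0.382 to -0.006 for IL-21 with IL-4. For IL-4 it went from -0.308 to -0.004, and for the 24 h interaction from 0.19 to -0.025. From 6 h to 24 h with IL-21 it went from 0.237 to -0.012. Without depth, low values such as those of Itgb7 and Itga4 have unknown counting error.

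The uncalled differences that turned sign or went to 0 were these. After rescaling, Gpr183 was at -0.039 with IL-21 at 6 h, -0.46 with IL-21 added to IL-4 at 24 h, 0.42 with IL-4 at 24 h, 0.0896 from 6 h to 24 h with IL-4 and -0.14 for the 24 h interaction. Cxcr4 was then at -0.26 for IL-21 added to IL-4 at 24 h, Cxcr5 at 0.11 for IL-4 added to IL-21 at 24 h and 0.039 over time with IL-4, and Itga4 at -0.22 over time with IL-21. Itgb7 was at 0 with IL-21 at 6 h under the block, and the change of the IL-4 effect on Cxcr4 at -0.28 without both replicate 1 libraries. Leaving out single libraries, differences for IL-21 alone ranged from -0.28 to 0.48 (Gpr183) and -0.35 to 0.24 (Cxcr5) at 6 h, and from -0.19 to 0.0845 (Gpr183) and -0.26 to 0.058 (S1pr1) at 24 h. With IL-21 added to IL-4 they ranged from -0.42 to 0.35 (Gpr183) and -0.20 to 0.61 (Cxcr5) at 6 h, and from -0.17 to 0.47 (Gpr183) and -0.084 to 0.70 (Cxcr4) at 24 h. For IL-4 alone the ranges were 0 to 0.30 (Itgb7, 6 h) and -0.41 to 0.23 (Gpr183, 24 h). For IL-4 added to IL-21 they were -0.71 to 0.26 (Ccr7) and -0.19 to 0.13 (Itga4) at 6 h, and -0.022 to 0.21 (Gpr183), -0.29 to 0.10 (Cxcr5) and -0.22 to 0.45 (Itgb7) at 24 h. Over time with IL-4 they were -0.54 to 0.0074 (S1pr1), -0.62 to 0.16 (Gpr183), -0.76 to 0.11 (Cxcr5) and -0.031 to 0.38 (Itgb7). With IL-21 they were -0.53 to 0.051 (Cxcr5) and -0.11 to 0.18 (Itga4), and with both -0.33 to 0.21 (Gpr183), -0.043 to 0.49 (Cxcr5) and -0.18 to 0.48 (Itgb7). For the 6 h interaction they were -0.53 to 0.28 (Gpr183), -0.15 to 0.66 (Cxcr5) and -0.0089 to 0.98 (Ccr7), for that at 24 h -0.12 to 0.51 (Gpr183), for the change of the IL-21 effect -0.53 to 0.23 (Gpr183), for that of IL-4 -0.28 to 0.55 (Cxcr4), and for naive cells against 6 h -0.022 to 0.52 (Cxcr5).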
